A study of Mus musculus with 6 samples.

Results

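The matricellular proteins and small leucine-rich proteoglycans considered here are 10 of the 30854 gene names on the Illumina MouseWG-6 v2.0 bead array: Thbs1, Thbs2, Tnc, Sparc, Spp1, Postn, Fn1, Dcn, Bgn and Lum, which the array lists in capitals as THBS1, THBS2, TNC, SPARC, SPP1, POSTN, FN1, DCN, BGN and LUM. All probes with one of these target names were taken, which gave 27 of 45281 probes. A further 31 genes of the same classes were followed as a separate list. Of the 27 probes, 14 probes of 8 genes were above background often enough to be tested. A probe had to be detected, at a detection threshold of 0.01, on 3 or more of the 6 arrays. Both Postn probes and both Lum probes were among the 13 that were not.

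The tested cells were MC38r, a mouse colorectal cancer line obtained after continuous exposure to EPA (eicosapentaenoic acid, a fatty acid of fish oil), whose IC50 for EPA was 6-fold higher. They were compared with MC38, the EPA-sensitive line. Both lines were cultured in RPMI with 10% foetal calf serum to 70% confluence, and the stated growth conditions name no EPA. Each line was represented by 3 arrays, and MC38r is 1 selected line, so resistance to EPA and any other property of that line cannot be told apart. Nothing in the labels says that replicates came from separate cultures, and the p-values then measure only a spread that may be technical.

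Matricellular proteins are secreted into the extracellular matrix, where they mainly signal to cells through integrins, syndecans, CD44 and other receptors and do not form the structural scaffold. Small leucine-rich proteoglycans bind collagen fibrils and growth factors, TGF-beta among them, and most carry chondroitin, dermatan or keratan sulfate chains. In tumours both families are usually made in large part by stromal fibroblasts, and cultured tumour cells with mesenchymal features also make them.

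All 6 arrays lay on 1 chip, with the MC38r arrays on sections D to F and the MC38 arrays on sections A to C, so chip position and line cannot be told apart. Probes above background made up 29% to 30.5% of all probes on MC38r arrays and 28.3% to 30.1% on MC38 arrays. Control signals for housekeeping genes were 14.8% lower on MC38r than on MC38 arrays before normalization, and the arrays of the lines did not overlap. The same held for the biotin (14.7% lower), Cy3 hybridization (8.28% lower) and low-stringency hybridization (7.75% lower) controls. The labelling, negative and noise values of the lines overlapped. The part of these differences in the results was not tested. Correlations between arrays over the kept probes were 0.981 to 0.994 within a line and 0.853 to 0.864 between the lines. MC38r replicate 1 and MC38 replicate 2 deviated from their groups together, with a correlation of deviations of 0.62, and results that turn on either array are given without it below. Of 11 epithelial marker genes, 9 were detected on no array, Epcam, Cdh1, Krt18 and Krt20 among them. Krt8 was detected on 1 array of each line, and Cdx2 on all MC38r arrays and no MC38 array. Apart from Cdx2 in MC38r and Krt8, the epithelial markers of a colorectal line were thus not detected. The summed deposited signal of 9 fibroblast marker genes was 3705 to 3793 on MC38r arrays and 11178 to 13270 on MC38 arrays, and nearly all of it came from Vim, which was 3.45-fold lower in MC38r (limma adjusted p = 3.4e-06). Within that list 4 kept probes fell, Pdgfra rose 2.13-fold (adjusted p = 2e-04), Col1a1 did not pass (log2 fold change -0.19, adjusted p = 0.48), and Dpt, Fap and Thy1 were on no array. Of 5 smooth muscle markers Acta2 alone was detected, and their sum was 63 to 100 on MC38r and 6475 to 7412 on MC38 arrays. Of 8 macrophage markers, 6 were on no array (Ptprc, Csf1r, Itgam, Emr1, Lyz1 and Lyz2), Cd14 was on every array (1.34-fold higher in MC38r, adjusted p = 0.015) and Cd68 on 1 MC38r and 3 MC38 arrays (log2 fold change -0.64, adjusted p = 0.0042). The part of these markers in the results was not tested. In RNA from whole cultures, fewer cells making a transcript and less RNA per cell cannot be told apart.

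Transcripts of 5 member genes fell in MC38r relative to MC38 on every probe tested: Thbs1, Thbs2, Tnc, Sparc and Bgn. Spp1 and Dcn rose on every probe tested, and the Fn1 probes disagreed. Counted by probe, 8 of the 14 kept member probes fell and 4 rose at an adjusted p under 0.05, which makes 12 called probes, or 85.7%, where 55.1% of all 13990 kept probes were called. Dcn probe 4280139 was detected on no MC38 array, so the filter kept it through MC38r alone and favoured a rise. With detection on all 6 arrays, 7 of 11 member probes fell and 3 rose, where 5696 of 10936 probes were called. The share lower in MC38r was 27% and the share higher was 28.1% over all kept probes, so these lines differ widely and a change in any 1 member is common. The median log2 fold change was -1.27 over the 14 member probes and 0.03 over all kept probes. The lines did not overlap on 12 of the 14 member probes, against 61.5% of all kept probes. Values below are normalized log2 signals of single probes, each log2 fold change is MC38r over MC38, and a signal is not compared between probes.

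**Figure D1:**
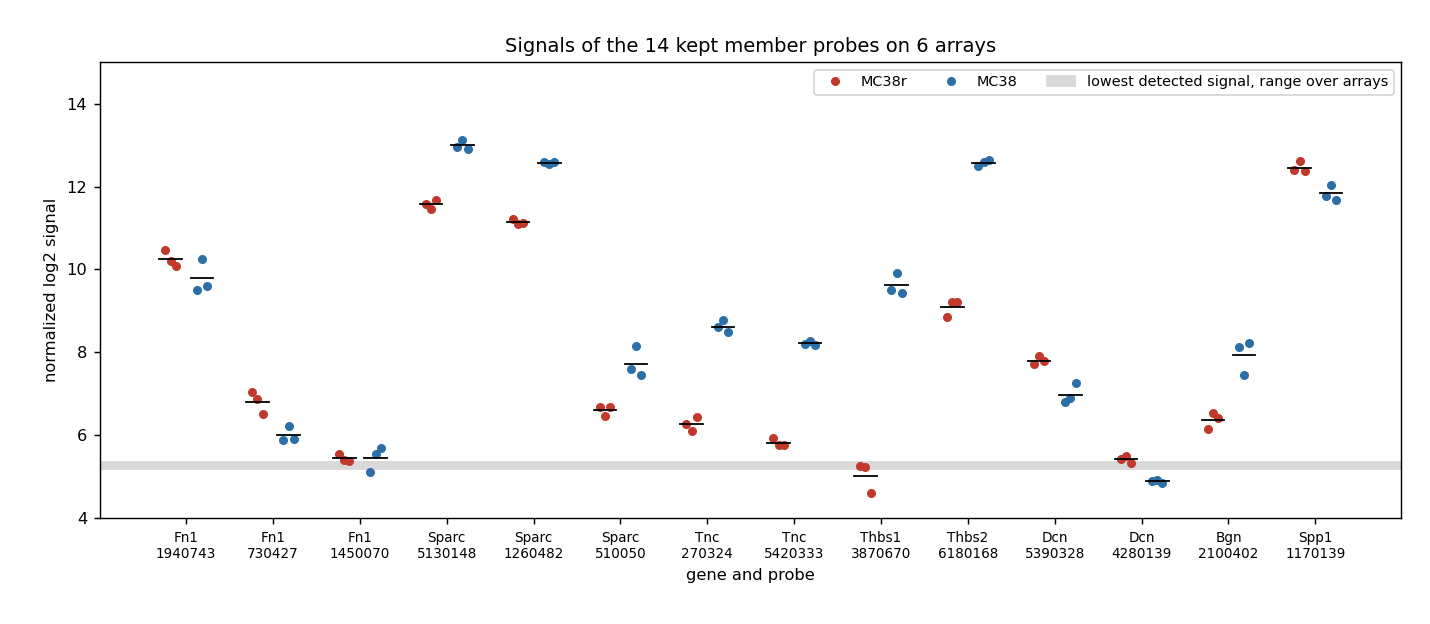
Normalized log2 signal (vertical axis) of the 14 kept member probes (horizontal axis, gene and probe number) on 3 MC38r arrays (red, left of each pair) and 3 MC38 arrays (blue, right); black bars are means and the grey band is the range over arrays of the lowest detected signal, 5.19 to 5.36. The Thbs1 points of MC38r lie within or under that band, while the Spp1 and Dcn points of MC38r lie above those of MC38.

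The promoter windows of 4 members whose transcripts differed are shown first, since they let the genes that fell (Thbs2, Tnc and Bgn) be read beside one that rose (Spp1). Each is the 250 bases before the first listed transcription start, from RefSeq on GRCm38.p6, 5′ to 3′ in the direction of transcription. They lie at chr17:14694263-14694512 on the minus strand, chr4:64047016-64047265 on the minus strand, chrX:73483351-73483600 on the plus strand, and chr5:104434861-104435110 on the plus strand. Capitals mark matches, on either strand, to 3 motifs. The first is the TATA box, searched as the letters TATAAA. The second is the CCAAT box, searched as the letters of its name. The third is the GC box, whose letters were taken as GGGCGG.
Thbs2: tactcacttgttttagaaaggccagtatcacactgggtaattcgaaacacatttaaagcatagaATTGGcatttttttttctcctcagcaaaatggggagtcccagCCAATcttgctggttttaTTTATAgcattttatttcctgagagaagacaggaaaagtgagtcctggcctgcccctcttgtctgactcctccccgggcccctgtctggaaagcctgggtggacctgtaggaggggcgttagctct
Tnc: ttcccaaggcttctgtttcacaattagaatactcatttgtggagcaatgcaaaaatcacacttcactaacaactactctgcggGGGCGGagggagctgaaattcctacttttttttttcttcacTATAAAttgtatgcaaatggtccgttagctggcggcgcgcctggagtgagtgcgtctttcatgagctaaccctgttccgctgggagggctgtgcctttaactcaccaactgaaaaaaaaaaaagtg
Bgn: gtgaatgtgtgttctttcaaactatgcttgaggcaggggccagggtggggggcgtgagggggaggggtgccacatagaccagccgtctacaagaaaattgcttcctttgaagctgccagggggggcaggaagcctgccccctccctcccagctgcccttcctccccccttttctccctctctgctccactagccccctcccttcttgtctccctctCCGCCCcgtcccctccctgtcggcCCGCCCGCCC
Spp1: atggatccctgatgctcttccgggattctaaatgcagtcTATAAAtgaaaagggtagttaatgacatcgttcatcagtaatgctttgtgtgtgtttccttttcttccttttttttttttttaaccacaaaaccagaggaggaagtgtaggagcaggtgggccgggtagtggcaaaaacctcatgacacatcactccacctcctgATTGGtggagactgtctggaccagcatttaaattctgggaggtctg
The Thbs2 window held a TATA box on the opposite strand that began 126 bases before the start, and 2 CCAAT boxes that began 186 and 144 bases before it. The Tnc window held a TATA box 126 and a GC box 167 bases before the start. In the Bgn window 3 GC boxes on the opposite strand began 34, 10 and 6 bases before the start, the last pair sharing letters. Spp1 had a TATA box 211 and a CCAAT box on the opposite strand 46 bases before its first listed start. The AP-1 motif (TGANTCA) and the TEAD motif (CATTCC), searched in the same way, were in none of these windows. Over 32851 windows of the same length, the TATA box was in 12.4%, the CCAAT box in 33.8%, the GC box in 32.7%, the AP-1 motif in 6.75% and the TEAD motif in 12.6%. Windows were found for 6 of the 10 members. That of Sparc held none of the 5 motifs, and that of Postn, a gene detected on no array, held a TATA box 26 bases before its second listed start. Fn1, Thbs1, Dcn and Lum are named only.

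Among the thrombospondins, Thbs1 showed the largest change of any member. Thrombospondin 1 is a secreted glycoprotein that inhibits angiogenesis and activates latent TGF-beta, with CD36 and CD47 among its receptors. On its kept probe, 3870670, the log2 signal was 5.26, 5.22 and 4.59 on the MC38r arrays, against 9.5, 9.92 and 9.43 on the MC38 arrays. The probe was above background on 2 of 3 MC38r arrays and on every MC38 array, and MC38r replicate 3 was the lowest. Means were 5.03 ± 0.38 in MC38r and 9.61 ± 0.27 in MC38 (SD, n = 3 each), a log2 fold change of -4.59 with a standard error of 0.21 and a 95% confidence interval of -5.07 to -4.11. Thbs1 was thus 24.1-fold lower in MC38r (interval 17.2 to 33.5, limma adjusted p = 1.9e-07), and 99.3% of all kept probes changed by less. Since the MC38r signals lie near background, the size depends on how background is handled. The log2 fold change was -5.28 with no background model and -3.61 with a larger offset of 50. It was -3.41 in the deposited series values per gene, a set apart from the deposited per-gene signals given below. The other Thbs1 probe, 610431, was detected on no array of either line.

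Thbs2, the close relative of Thbs1 that also inhibits angiogenesis, has a single probe, well above background on all 6 arrays. Its deposited signals were 448.1, 576.3 and 575.9 on the MC38r arrays, against 5735.7, 6203 and 6391.5 on the MC38 arrays. The 3 MC38r arrays were all far under the 3 MC38 arrays. The normalized log2 signal averaged 9.09 ± 0.2 in MC38r and 12.58 ± 0.08 in MC38 (SD, n = 3 each), which is 11.2-fold lower in MC38r (interval 8.96 to 14, log2 fold change -3.49, limma adjusted p = 9e-08). Smoc2, which lies next to Thbs2 in the gene order of GRCm38.p6 and also encodes a matricellular protein, was detected on no array.

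Tnc encodes tenascin C, a large hexameric glycoprotein that is abundant in wounds and tumour stroma and loosens cell adhesion to fibronectin. Of its 6 probes, 2 were kept. Probe 270324 had log2 signals of 6.27, 6.09 and 6.43 on the MC38r arrays and of 8.61, 8.77 and 8.48 on the MC38 arrays. Probe 5420333 had 5.94, 5.75 and 5.77 on the MC38r arrays and 8.2, 8.28 and 8.17 on the MC38 arrays. Both probes were above background on every array, with no overlap between the lines. Their changes were of one size: 5.12-fold lower in MC38r on the first (log2 fold change -2.36, interval -2.68 to -2.03, limma adjusted p = 1.2e-06) and 5.27-fold lower on the second (-2.4, interval -2.68 to -2.11, adjusted p = 4.1e-07). The remaining 4 Tnc probes were detected on no array, in either line. The files give no probe sequences, so which transcripts each probe reads was not analysed here.

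Sparc encodes osteonectin, a calcium- and collagen-binding protein that promotes cell rounding and collagen fibril assembly. On probe 5130148 the log2 signal was 11.57, 11.47 and 11.67 on the MC38r arrays, against 12.95, 13.13 and 12.9 on the MC38 arrays. On probe 1260482 it was 11.23, 11.1 and 11.11 on the MC38r arrays, against 12.59, 12.55 and 12.6 on the MC38 arrays. These probes gave log2 fold changes of -1.43 (interval -1.72 to -1.13, limma adjusted p = 1.8e-05) and -1.43 (interval -1.71 to -1.16, adjusted p = 1e-05), or 2.69-fold and 2.7-fold lower in MC38r. A dimmer probe, 510050, was 2.16-fold lower, at 6.61 ± 0.13 in MC38r and 7.72 ± 0.37 in MC38 (SD, n = 3 each, limma adjusted p = 9e-04). The interval of its log2 fold change, -1.54 to -0.68, overlaps those of the brighter probes. Probe 2120541 was on no array. Sparc stayed well above background in MC38r, with mean deposited signals of 3024.5 in MC38r and 8164.8 in MC38 on its first probe.

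Spp1 rose in MC38r. It encodes osteopontin, a secreted phosphoprotein that binds integrins and CD44. Its single probe had log2 signals of 12.39, 12.61 and 12.38 on the MC38r arrays, against 11.78, 12.05 and 11.68 on the MC38 arrays. Every MC38r array was above every MC38 array, with MC38 replicate 2 the highest of its line. Means were 12.46 ± 0.13 in MC38r and 11.84 ± 0.19 in MC38 (SD, n = 3 each), 1.54-fold higher in MC38r (interval 1.22 to 1.94, log2 fold change 0.62, limma adjusted p = 0.0058). Over all kept probes, 58.3% changed by less. Its neighbours in the gene order of GRCm38.p6, the mineral-matrix genes Dmp1, Ibsp and Mepe, were detected on no array. Pkd2, the neighbour on the other side, rose by 1.76 on the log2 scale (adjusted p = 0.00028).

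Postn encodes periostin, a fasciclin-domain protein that links collagen with other matrix proteins and is typical of activated fibroblasts. Neither of its probes was detected on any array. Their log2 signals averaged 4.45 ± 0.13 in MC38r and 4.51 ± 0.08 in MC38 on probe 2710424, and 4.47 ± 0.05 in MC38r and 4.48 ± 0.09 in MC38 on probe 5670414 (SD, n = 3 each). The lowest detection p was 0.35 on the first and 0.41 on the second, so a level or a difference could not be measured.

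Fn1 encodes fibronectin, the dimeric glycoprotein that cells assemble into fibrils through integrin alpha5 beta1. Its probes disagreed. On the brightest, 1940743, the log2 signal was 10.46, 10.21 and 10.09 on the MC38r arrays, against 9.51, 10.25 and 9.59 on the MC38 arrays. MC38 replicate 2 lay within the MC38r values and well over the other MC38 arrays. The log2 fold change was 0.47 with an interval of 0 to 0.94 and did not pass the test (limma adjusted p = 0.083). Without MC38 replicate 2 it was 0.7 (adjusted p = 0.0034), and without both arrays that deviate together 0.6 (adjusted p = 0.0039). On probe 730427 Fn1 rose, with 7.05, 6.86 and 6.5 on the MC38r arrays against 5.87, 6.23 and 5.9 on the MC38 arrays, 1.75-fold higher in MC38r (log2 fold change 0.81, interval 0.41 to 1.2, limma adjusted p = 0.0036). On the dim probe 1450070 the means were 5.44 ± 0.09 in MC38r and 5.44 ± 0.3 in MC38 (SD, n = 3 each). Its log2 fold change was 0 with an interval of -0.38 to 0.38, and it was above background on 3 MC38r and 2 MC38 arrays. The last probe, 6900192, was on no array. No Fn1 probe was called lower in MC38r.

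**Figure D2:**
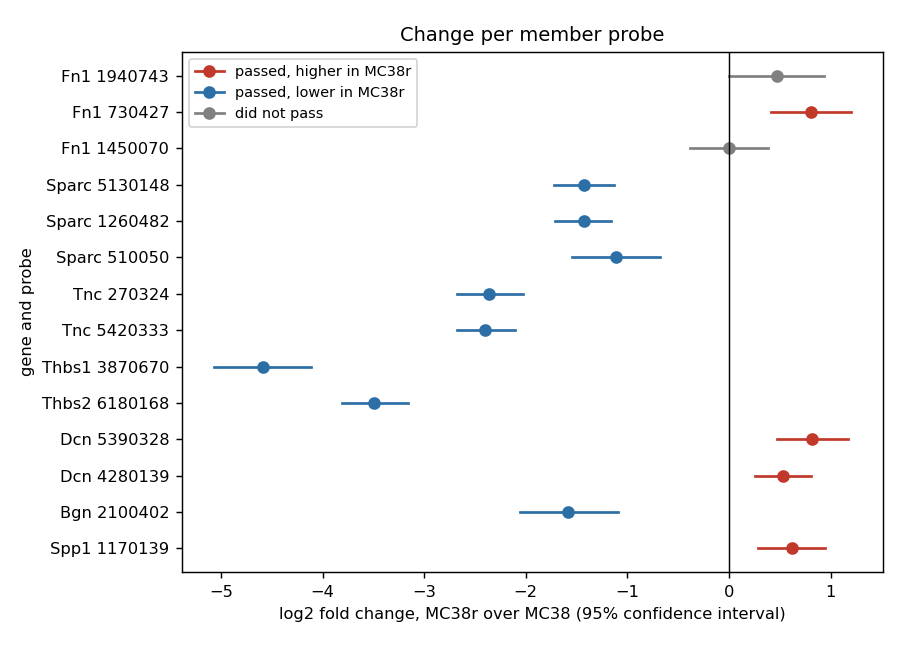
Log2 fold change of MC38r over MC38 (horizontal axis) of each kept member probe (vertical axis), as points with 95% confidence intervals; red probes were higher and blue probes lower in MC38r at an adjusted p under 0.05, and grey probes did not pass. The Thbs1, Thbs2, Tnc, Sparc and Bgn intervals lie wholly under 0, and the Fn1 probes range from 0 to 0.81.

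Among the small leucine-rich proteoglycans, Bgn and Dcn changed in opposite directions. Bgn encodes biglycan, which carries chondroitin or dermatan sulfate chains and in soluble form is a ligand of the Toll-like receptors TLR2 and TLR4. Its single probe had deposited signals of 54.6, 76.5 and 69.4 on the MC38r arrays, against 264.5, 158.7 and 283.8 on the MC38 arrays. MC38 replicate 2 was the lowest of its line and still over every MC38r array. Log2 signals averaged 6.36 ± 0.2 in MC38r and 7.93 ± 0.43 in MC38 (SD, n = 3 each), 2.98-fold lower in MC38r (interval 2.13 to 4.17, log2 fold change -1.58, limma adjusted p = 0.00022).

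Dcn encodes decorin, which binds collagen fibrils and TGF-beta and is known as an antagonist of the EGF and MET receptors. On probe 5390328 its deposited signals were 194.8, 222.8 and 203.8 on the MC38r arrays, against 94.6, 103.2 and 137.7 on the MC38 arrays. The lines did not overlap, with MC38 replicate 3 the nearest to MC38r. Log2 signals averaged 7.8 ± 0.09 in MC38r and 6.98 ± 0.25 in MC38 (SD, n = 3 each), 1.76-fold higher in MC38r (log2 fold change 0.82, interval 0.47 to 1.17, limma adjusted p = 0.0017). A second probe, 4280139, was detected on each MC38r array and on none of the MC38 arrays. It was at least 1.09-fold higher in MC38r, at 5.41 ± 0.08 in MC38r and 4.88 ± 0.03 in MC38 (SD, n = 3 each, limma adjusted p = 0.0046). Such a fold is the mean of the brighter line over that of the dimmer line with each of its arrays set to the lowest signal that counted as detected there. Probe 4280139 was the only kept member probe detected in 1 line alone, and the filter kept it through MC38r, which favoured a rise. The other Dcn probes, 130047 and 7040228, were on no array.

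Lum encodes lumican, a keratan sulfate proteoglycan that regulates collagen fibril diameter. Both of its probes were at background on all 6 arrays, at 4.53 ± 0.07 in MC38r and 4.5 ± 0.16 in MC38 on probe 4180475 and at 4.48 ± 0.03 in MC38r and 4.42 ± 0.09 in MC38 on probe 6650021 (SD, n = 3 each). In the gene order of GRCm38.p6, Dcn, Lum, Kera and Epyc lie side by side and all encode small leucine-rich proteoglycans. Of these 4 genes Dcn alone was detected.

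**Figure D3:**
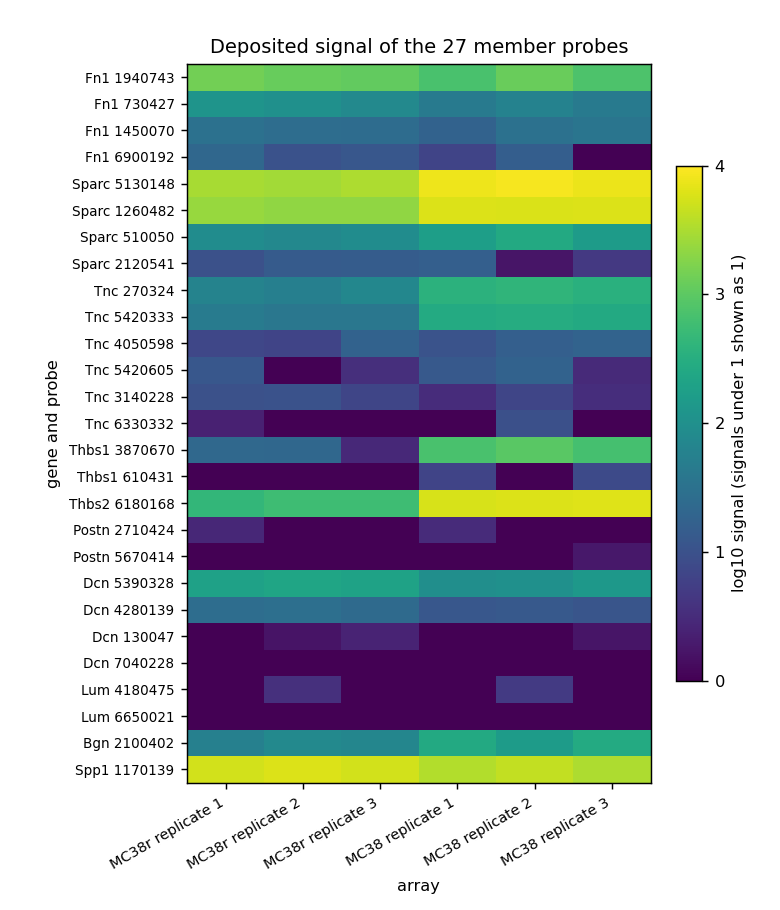
Deposited signal of all 27 member probes (rows, gene and probe) on the 3 MC38r arrays (left columns) and the 3 MC38 arrays (right columns), as colour on a log10 scale with signals under 1 shown as 1. The 13 probes that were not tested are dark on every array, with no signal over 21.4.

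Beads behind a kept member probe numbered 27 to 74 per array. The 13 probes that were not kept were detected on none of the arrays, with a lowest detection p of 0.011. How far the members stood from other transcripts varied with the gene: the Tnc probes changed by more than 95.5% and 95.7% of all kept probes, Bgn by more than 90%, the 3 Sparc probes by more than 80.6% to 88%, and Dcn probe 5390328 by more than 69.3%. Over all kept probes, 22.9% were called with a change of at least 2-fold and 11.7% were called at least 2-fold lower, a size that all 8 fallen member probes reached.

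**Figure D4:**
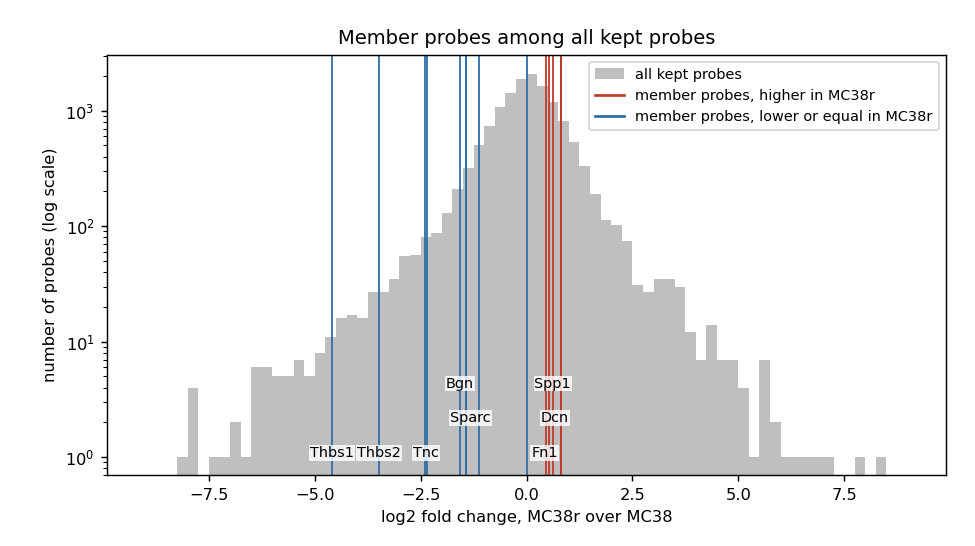
Number of probes (vertical axis, log scale) by log2 fold change of MC38r over MC38 (horizontal axis) for all 13990 kept probes (grey bars), with the 14 member probes as vertical lines, red where above 0 and blue where at or under 0. Thbs1 at -4.59 and Thbs2 at -3.49 lie in the left tail, while the Spp1, Dcn and Fn1 lines lie within the centre of the distribution.

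The deposited per-gene signals were the mean over all probes of a gene, undetected ones included, within 0.08 of a signal unit for every member. For Tnc this mean was 19.8 in MC38r and 115.4 in MC38, against 61.5 in MC38r and 379.2 in MC38 on its brightest probe alone. For Thbs1 it was 6.4 in MC38r and 390.3 in MC38. The authors' deposited table of the comparison listed 7 members and left out Fn1, Postn and Lum, since it stops at an unadjusted p of 0.05. In the authors' deposited table Thbs2 was 10.9-fold lower in MC38r and Thbs1 10.7-fold lower. Tnc was 2.82-fold lower in the authors' deposited table, where its kept probes gave 5.12-fold and 5.27-fold here. The deposited series values, a separate per-gene set, were 52.7 in MC38r and 149 in MC38 for Tnc. Their log2 ratio of -1.5 is the one in the authors' table. For Thbs1 the series values were 39.4 in MC38r and 421 in MC38, and their log2 ratio of -3.42 is again that of the authors' table. Bgn (2.67-fold lower), Sparc (2.66-fold lower), Spp1 (1.51-fold higher) and Dcn (1.45-fold higher) had the same direction in the authors' deposited table as on their probes. The adjusted p in the authors' deposited table was 0.112 for Thbs1, 0.231 for Bgn, 0.1136 for Spp1 and 0.0585 for Dcn, and it was 0.0278 for Thbs2, 0.0461 for Tnc and 0.0175 for Sparc. The test behind that table is not given in the sources used here.

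**Figure D5:**
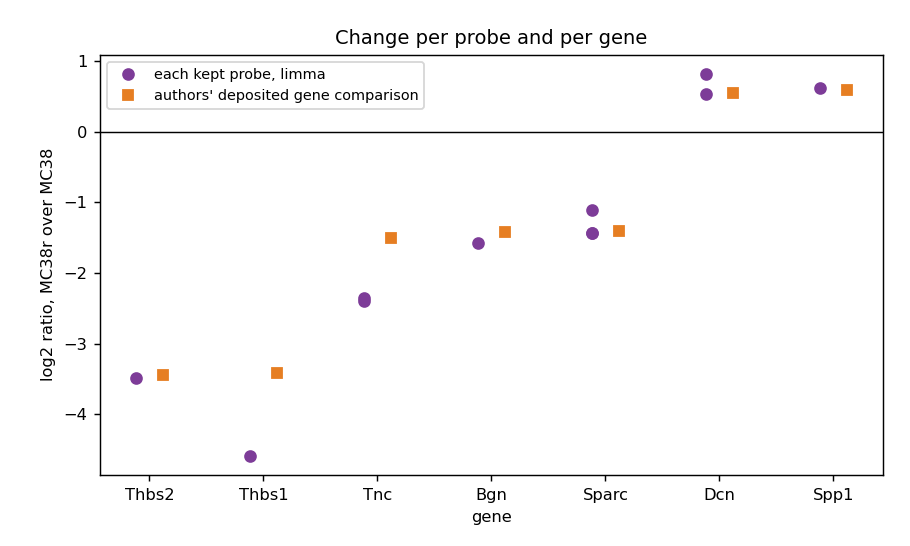
Log2 ratio of MC38r over MC38 (vertical axis) for the 7 members in the authors' deposited table (horizontal axis), with each kept probe as a purple circle and the deposited gene comparison as an orange square. For Thbs1 (-3.42 against -4.59) and Tnc (-1.5 against -2.36 and -2.4) the gene value lies nearer to 0 than the probes.

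Other matricellular proteins and small proteoglycans were mostly undetected. Of 31 genes with 49 probes, 5 genes with 6 probes were kept. All 6 probes passed the test, 4 lower and 2 higher in MC38r, where 55.1% of all kept probes passed. The median log2 fold change of the 6 probes was -1.21. Of the 4 lower probes, 3 were detected on no MC38r array. The filter kept those 3 through MC38 alone and so favoured a lower call, and the count is not read as an excess. Fstl1, a secreted relative of SPARC, was 26.1-fold lower, at 5.9 ± 0.26 in MC38r and 10.61 ± 0.69 in MC38 (SD, n = 3 each, limma adjusted p = 1.7e-06). Tgfbi, a TGF-beta-induced relative of periostin, was above background on no MC38r array and at least 5.78-fold lower on probe 450133, at 4.33 ± 0.09 in MC38r and 7.77 ± 0.29 in MC38 (adjusted p = 2.3e-07). Its dimmer kept probe, 4060327, was also on no MC38r array and only at least 1.23-fold lower (adjusted p = 0.00031). Thbs3, a further thrombospondin, was at least 2-fold lower, at 4.77 ± 0.22 in MC38r and 6.24 ± 0.58 in MC38 (adjusted p = 0.0012). Mgp, the matrix Gla protein that inhibits calcification, rose 7.66-fold, to 10.9 ± 0.16 in MC38r against 7.96 ± 0.11 in MC38 (adjusted p = 2e-07). The small leucine-rich proteoglycan Ogn, osteoglycin, named after its values were seen, was 1.82-fold higher in MC38r (adjusted p = 0.00043). With Ogn and Mgp higher and the thrombospondins lower, the direction differed between members of the class.

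Receptors for these proteins fell more often than they rose. Of 25 receptor genes, 17 genes with 23 probes were kept, of which 16 probes fell, 4 rose and 3 did not pass, with a median log2 fold change of -1.11. That is 87% called, where 55.1% of all kept probes were called, 27% lower and 28.1% higher. Of the 23 probes, 6 were detected on no MC38r array, so the filter kept them through MC38 alone and favoured a fall. None was kept through MC38r alone. Over all kept probes, 659 were on no MC38r array and 617 on no MC38 array. With detection on all 6 arrays 16 receptor probes were tested, of which 10 fell and 4 rose. The syndecans, transmembrane heparan sulfate proteoglycans that bind thrombospondins, tenascin C and fibronectin, fell. Sdc3 was above background on no MC38r array and at least 6.4-fold lower, at 4.61 ± 0.14 in MC38r and 7.92 ± 0.27 in MC38 (SD, n = 3 each, limma adjusted p = 2.9e-07). Sdc4 was 5.51-fold lower (adjusted p = 3.1e-06) and Sdc2 was 4.44-fold lower (adjusted p = 8.6e-06). Cd44, a hyaluronan and osteopontin receptor, was 4.64-fold lower on probe 4880138, at 8.99 ± 0.02 in MC38r and 11.21 ± 0.14 in MC38 (adjusted p = 8e-07), and 2.07-fold lower on probe 2230538 (adjusted p = 0.00052). Its other 2 kept probes were above background on no MC38r array and at least 1.37-fold (adjusted p = 0.00011) and 1.32-fold lower (adjusted p = 0.0037). Itgb1, the beta chain shared by many matrix-binding integrins, did not pass on either probe, with log2 fold changes of 0.1 (adjusted p = 0.66) and 0.67 (adjusted p = 0.12). Without MC38 replicate 1 the second was 1.02 (adjusted p = 0.02). Its log2 signals were 6.22, 6.65 and 6.38 on the MC38r arrays, against 6.45, 4.89 and 5.91 on the MC38 arrays. The size of that difference thus rests largely on MC38 replicate 2.

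Some further receptors, not the whole list, were named after their values were seen, to set each beside its ligand. Itga5, the fibronectin-binding alpha chain, fell 3.58-fold and 2.96-fold on its kept probes (limma adjusted p = 0.00027 and 0.00052). Itgb5, the beta chain of an osteopontin-binding integrin, fell 3.38-fold (adjusted p = 6.7e-05). Cd47, a thrombospondin 1 receptor, rose 2.18-fold, to 10.36 ± 0.1 in MC38r against 9.23 ± 0.1 in MC38 (SD, n = 3 each, adjusted p = 7.8e-05), beside the lower Thbs1. Cd36, another thrombospondin 1 receptor, was detected on no array. Itga3, an alpha chain of a laminin-binding integrin that also binds thrombospondin 1, rose 3.59-fold (adjusted p = 5.9e-06). Itgav fell by 0.54 on the log2 scale (adjusted p = 0.035), a call lost without MC38r replicate 2 (-0.51, adjusted p = 0.095), MC38r replicate 3 (-0.42, 0.13), MC38 replicate 1 (-0.58, 0.059) or MC38 replicate 2 (-0.38, 0.086). Of the biglycan receptors, Tlr2 was above background on no MC38r array and at least 1.57-fold lower (adjusted p = 0.00034), while both kept Tlr4 probes were higher, 1.46-fold (adjusted p = 0.0064) and 2.11-fold (adjusted p = 0.0019). The receptors that decorin antagonises were on no MC38r array: Egfr was at least 2.29-fold lower (adjusted p = 2.4e-06) and Met at least 1.52-fold lower (adjusted p = 0.00071).

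The enzymes that build the chondroitin and dermatan sulfate chains of decorin and biglycan were called about as often as other transcripts. Of 15 kept probes of 12 genes, 5 fell, 2 rose and 8 did not pass, which is 46.7% called, near the 55.1% of all kept probes, with a median log2 fold change of -0.29. The filter kept 1 probe (Chst7) through MC38 alone, which favoured a fall, and 1 (Chst15) through MC38r alone, which favoured a rise. Chst7, a chondroitin 6-sulfotransferase, was above background on no MC38r array and at least 5.42-fold lower, at 4.56 ± 0.08 in MC38r and 7.68 ± 0.16 in MC38 (SD, n = 3 each, limma adjusted p = 1.3e-07). B3galt6, which adds a galactose of the linker between chain and core protein, was 4.73-fold lower (adjusted p = 1.4e-06) and was detected on 2 of 3 MC38r arrays. Chst12, a chondroitin 4-sulfotransferase, was 2.84-fold lower (adjusted p = 7e-04) and was detected on 1 of 3 MC38r arrays. Chst15, a sulfotransferase of chondroitin sulfate E that the array lists under an older name, was above background on no MC38 array and at least 2.51-fold higher, at 6.61 ± 0.2 in MC38r and 4.8 ± 0.24 in MC38 (adjusted p = 1.9e-05). Chpf, a chondroitin polymerizing factor, did not pass (log2 fold change -0.39, adjusted p = 0.19), and without MC38 replicate 2 it was -0.59 (adjusted p = 0.038). Csgalnact1, which starts the chain, did not pass on probe 5090619 (-0.32, adjusted p = 0.25) and fell on probe 6290753 (-0.54, adjusted p = 0.043), both near background in MC38r.

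TGF-beta induces several of the members and is bound by decorin and biglycan. Its ligands, receptors and signal mediators were therefore counted, together with the proteases Bmp1 and Furin. Of 13 genes, 12 were found on the array, Smad4 being the one that was not. Of these, 10 genes with 15 probes were kept, of which 9 probes fell, 3 rose and 3 did not pass, with a median log2 fold change of -0.95. That is 80% called, against 55.1% of all kept probes called and 27% called lower. Of the 15 probes, 1 was detected on no MC38r array and was kept through MC38 alone. Tgfb3 was 5.27-fold lower, at 5.37 ± 0.06 in MC38r and 7.76 ± 0.02 in MC38 (SD, n = 3 each, limma adjusted p = 3e-07). Tgfbr2, the type II receptor, was 3.04-fold lower on probe 5960497 (adjusted p = 7.7e-06) and 2.2-fold lower on probe 4200246 (adjusted p = 7.5e-05). Bmp1, a protease that processes procollagens and small proteoglycans, was 2.25-fold lower on its brightest probe (adjusted p = 0.026), where the lines overlapped. That call was lost without MC38r replicate 1 (log2 fold change -0.81, adjusted p = 0.074), MC38 replicate 1 (-0.95, 0.093) or MC38 replicate 3 (-0.98, 0.09), while 2 dimmer Bmp1 probes fell by 1.06 (adjusted p = 0.00055) and 0.95 (adjusted p = 0.0015). Tgfb1 did not pass (log2 fold change 0.22, adjusted p = 0.25). Furin, a protease that cleaves the TGF-beta precursor, did not pass on its brighter probe 6960189 (0.32, adjusted p = 0.24; without MC38 replicate 2, 0.54 and 0.026), and rose on probe 3840020 (0.7, adjusted p = 0.0094).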

How the data were processed

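Per the labels' protocols, total RNA was purified on RNeasy columns and labelled with biotin through the Ambion MessageAmp kit. Per the file headers, the authors exported probe and gene intensity from GenomeStudio 1.9.0 with quantile normalization and no error model, and values under 0 show that background had been subtracted. The deposited detection score is 1 minus the detection p-value. The deposited control signals are intensity per array. The authors' deposited comparison gives a linear ratio and fold size, a log2 ratio and unadjusted and adjusted p-values, with the test not given in the sources used here. The deposited series values are gene intensity normalized once more. For dim members they lay above the deposited per-gene signals, which makes the fold of a dim gene smaller. For Postn they were 29.5 in MC38r and 31.7 in MC38, against per-gene signals of -3.5 in MC38r and -1.4 in MC38.

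The probe signals were corrected with limma 3.58.1 (nec with detection p-values, offset 16) in R 4.3.3, log2-transformed and quantile-normalized. The design assumed signals that were not yet normalized, so this second normalization acts on normalized values. Probes detected at p under 0.01 on at least 3 of 6 arrays were kept (13990), and MC38r was set against MC38 per probe with limma (lmFit, eBayes). P-values were adjusted over all kept probes by the Benjamini-Hochberg method at 0.05, and the procedure was tested on simulated data. With 3 arrays a line the number of arrays limits the precision, and log2 fold changes had a median standard error of 0.16.

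The members and lists were chosen with earlier results of these data known. All members are named, and from every other list up to 4 probes past the threshold and up to 2 not past it, by size of change; genes outside this rule are said to be named after their values were seen. Same-numbered arrays deviated from their line means with correlations of -0.46, -0.44 and 0.3, so the numbers do not pair the arrays. Promoter windows were matched by symbol. Positions of promoter windows and gene order are those of RefSeq on GRCm38.p6; the arrays name no genome build, and no probe positions are given.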

Additional observations from a re-analysis of the deposited data

How the results depend on the processing

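Alternatives covered the background model, offset, normalization, filter, probe choice, variance model, replicate block, the deposited series values and the omission of each array; leaving out MC38r replicate 1 and MC38 replicate 2 together was chosen after seeing the data. Every called member probe kept its direction and its call wherever it was tested. With 1 brightest probe per gene 7 members were called (5 lower, 2 higher), as with the series values per gene, since fewer features were tested; the TGF-beta genes gave 7 calls in both. With detection on all 6 arrays fewer probes were tested, and the balance of directions changed in 2 lists. The other matricellular genes gave 3 calls among 3 probes, 2 higher and 1 lower in MC38r, against 2 higher and 4 lower in the main run. The chain assembly enzymes gave 1 call among 5 probes, higher in MC38r, against 2 higher and 5 lower in the main run. The lower calls in these lists thus rest largely on probes not detected on every array. Member calls numbered 12 to 13 when single arrays were left out and 13 without both arrays. Over all kept probes calls ranged from 5696 with detection on all 6 arrays to 8479 without both arrays. The replicate block gave 6887 calls over all probes and left the 12 member calls at 12; since the numbers do not pair the arrays, it serves as a check only. The sign of Fn1 probe 1450070, at 0, turned to 0.03 with no background model and 0.01 with median scaling, and ran from -0.17 to 0.12 with single arrays left out. Itgb1 probe 3890670, at 0.1, ran from -0.05 to 0.24 with single arrays left out and was -0.03 without both arrays. Itgav and Bmp1 probe 6940278 also lost their calls with no filter (adjusted p of 0.11 and 0.14) and without moderation (0.12 and 0.16), and Itgav lost it with the series values per gene (-0.27 on the log2 scale, adjusted p of 0.084); the cause was not tested. Signals near background limit Thbs1 in MC38r, Fn1 probe 1450070 and Dcn probe 4280139.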
